A study of Mus musculus with 2 samples.

Results

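Sox transcription factors were read on 2 arrays, 1 of mature hepatocytes (MHs) and 1 of Sox9+EpCAM- cells, and 9 of them were chosen by name from the 30153 gene names of the array design (Sox4, Sox5, Sox6, Sox7, Sox9, Sox12, Sox13, Sox17 and Sox18). They are covered by 14 probes and 23 spots, and every spot was used. Per the study's methods, MHs came from healthy livers of Sox9-EGFP mice after collagenase perfusion and Percoll gradient centrifugation. Sox9+EpCAM- cells were GFP-positive, EpCAM-negative cells, collected by FACS from the same mouse line after a diet with DDC, a compound that injures the bile ducts. Both samples therefore carry the transgene, in which Sox9 regulatory sequence drives EGFP, and they differ in diet and in how the cells were collected. The labels describe both samples as hepatocytes and call both male. On the MH array, however, Xist, the RNA of the inactive X chromosome, was high (log2 bound -7.30 for Sox9+EpCAM- cells against MHs) and the Y-linked genes Ddx3y, Kdm5d, Uty and Eif2s3y gave no signal well above background, so that array goes against its label, and the part of this in the Sox differences was not tested. The age of the mice and the number of mice behind each array are not given in the sources used here. A diet of 2 weeks is stated for quantitative PCR of cells sorted in the same way, and not for the arrays themselves. With 1 array per group no difference has a replicate check and no test was made, so a difference compares 2 RNA samples.

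Sox proteins are transcription factors related to the testis-determining factor SRY. They bind DNA through an HMG box, which bends the double helix, and are placed in groups by the likeness of this domain. SoxC factors (Sox4, Sox12) are known from progenitor cells of many tissues, SoxD factors (Sox5, Sox6, Sox13) carry no activation domain of their own and often act with other Sox proteins, SoxE factors include Sox9, and SoxF factors (Sox7, Sox17, Sox18) are known from blood vessels. In liver, Sox9 marks bile duct cells and hepatocytes that take on duct-like features after injury, Sox4 acts beside it in bile duct development, and Sox17 takes part in forming the definitive endoderm and the extrahepatic bile duct.

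Of the 9 Sox genes, Sox4 was higher by 4-fold or more in Sox9+EpCAM- cells and Sox17 lower by 4-fold or more. Sox12 was 2.59-fold higher, while Sox5, Sox6 and Sox13 differed by less than 2-fold. Sox9 was well above background in Sox9+EpCAM- cells only, and Sox7 and Sox18 were well above background on neither array. Of the 7 Sox genes with a difference, 4 were higher and 3 lower, and their median log2 difference was 0.52, beside -0.12 over the 21877 genes with a difference. Of the 7, 5 were measured on both arrays, with a median of 0.52 too, while Sox9 and Sox17 are bounds. The direction of Sox9, among the 4 higher, is set by the sorting gate. At 4-fold, 1 Sox gene was higher and 1 was lower, where 5.98% of all genes with a difference were higher and 5.96% were lower. At 2-fold, 2 were higher and 1 was lower, beside 15.2% and 17.9% of all genes with a difference. Counts this small cannot be set apart from those shares.

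The values are Cy3 fluorescence intensities in arbitrary units after background subtraction, given with the error that the scanner software estimates for each spot. This error covers the measurement of the spot and not the variation between mice. Differences are log2 of Sox9+EpCAM- over MH after each intensity was divided by the 75th percentile of its array, which was 741 for MHs and 1110 for Sox9+EpCAM- cells, so an equal intensity on both arrays is a lower level in Sox9+EpCAM- cells. Each array has 43020 spots besides the controls, of which 27523 (MHs) and 32158 (Sox9+EpCAM- cells) were well above background and 0 were saturated. The floor of measurement, the lowest signal that was well above background, was 27.8 for MHs and 18.4 for Sox9+EpCAM- cells. A probe not well above background on 1 array was given a bound against the higher of its own signal there and this lowest signal. Where that bound pointed the other way, no difference was given. A probe not well above background on both was given no difference either, which held for 22.3% of all genes. In all, 21877 of 30153 genes had a difference.

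Several genes have more than 1 probe, and the sequences of these probes and of the Sox9 probe are shown because the values turn on where a probe lies and on what else it could bind. Probes are 60 bases long, are written 5′ to 3′ and are numbered in the direction of transcription. The coordinates are those of the array design on mm9. The first Sox4 probe is given whole, since its bases are known to code for the end of the HMG box, and the others by their first 30 bases. Capitals mark the triplet GGA in the third Sox5 probe, and it alone is marked.
Sox4 probe 1 (chr13:29044482-29044541, minus strand): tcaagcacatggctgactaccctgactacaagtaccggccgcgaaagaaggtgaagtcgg
Sox4 probe 2 (chr13:29042856-29042915, minus strand): ttttctgcaatgaagacagaaagaaggctc
Sox4 probe 3 (chr13:29040826-29040885, minus strand): aatcctgtccgtcactgcctgtcaggttgt
Sox5 probe 1 (chr6:143787982-143788041, minus strand): ctgggcccatgggcaaattcaatcagatgc
Sox5 probe 2 (chr6:143781520-143781579, minus strand): ttacaagcaaaaacgtcatcaagaagaaga
Sox5 probe 3 (chr6:143776945-143776971, minus strand): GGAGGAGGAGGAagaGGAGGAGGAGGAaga
Sox9 probe (chr11:112648809-112648868, plus strand): ataaaaccttaaagcgttcttataatatgg
Sox17 probe 1 (chr1:4481503-4481562, minus strand): ctcactgacttattccatttcttgaaagtg
Sox17 probe 2 (chr1:4481038-4481097, minus strand): cccacttcccacaaaatttgcctttaattc

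**Figure D1:**
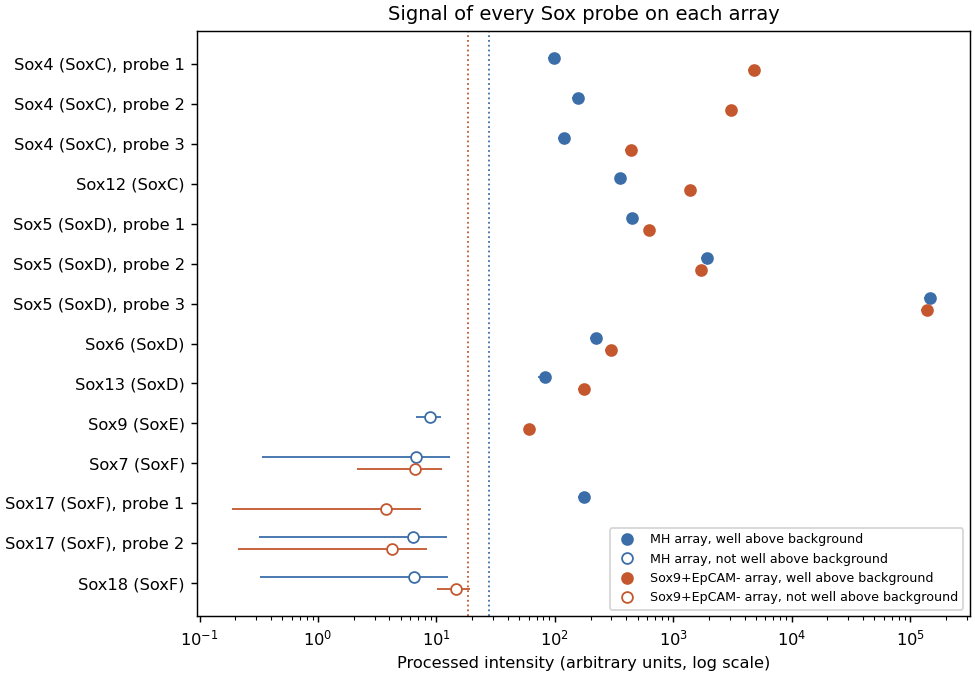
Processed intensity (arbitrary units, log scale) of the 14 Sox probes for MHs and Sox9+EpCAM- cells, with 1 value per probe and array. Filled points are well above background, open points are not, bars are the scanner software's error (cut short where it nearly reaches 0), and dotted lines mark the lowest signal well above background on each array, 27.8 and 18.4. The 3 Sox4 probes and Sox12 sit to the right on the Sox9+EpCAM- array, and Sox17 probe 1 goes from 175 to an open point at 3.78.

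Sox9 is the gene whose regulatory sequence drives the EGFP used for sorting, so a higher Sox9 level in the sorted cells is set by the gate and was read as a check of it. The probe is printed 10 times on each array. For MHs the 10 spots ranged from 6.75 to 14.8 with a median of 7.53 (mean 8.87 ± 2.90, SD over spots, n = 10 spots of 1 array), and 0 of 10 were well above background. For Sox9+EpCAM- cells they ranged from 51.2 to 74.6 with a median of 61.6 (mean 60.7 ± 8.26, SD over spots, n = 10 spots of 1 array), and 10 of 10 were well above background. The spots of the arrays did not overlap. Since MHs had no signal well above background, the level in Sox9+EpCAM- cells was at least 1.45-fold higher, a low bound because even the brighter signal lies near the bottom of the measurable range.

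**Figure D2:**
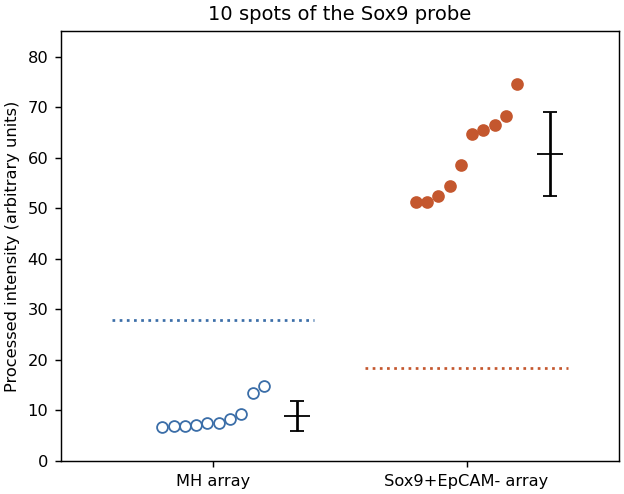
Processed intensity (arbitrary units, linear scale from 0) of the 10 spots of the Sox9 probe on each array, sorted by value. Open points are not well above background, the black mark and bar give the mean and SD over spots, and dotted lines mark the lowest signal well above background (27.8 and 18.4). The MH spots lie between 6.75 and 14.8 and the Sox9+EpCAM- spots between 51.2 and 74.6.

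Sox4, a SoxC factor that maintains progenitor states and acts with Sox9 in bile duct formation, had the largest upward difference among those of the 9 genes measured on both arrays. Sox9 has only a lower bound and cannot be ranked against it. The Sox4 difference was above 98.9% of the differences, bounds included, of the 21877 genes that have one. The brightest of the Sox4 probes by mean log2 level, probe 2, went from 157 ± 17.2 in MHs to 3070 ± 307 in Sox9+EpCAM- cells, which is 13.1-fold (log2 difference 3.71 ± 0.21). Probe 1, in the coding sequence of the HMG box, gave 98.2 ± 11.3 and 4760 ± 476, a 32.4-fold higher level (log2 difference 5.02 ± 0.22). Probe 3, the farthest downstream, gave 119 ± 13.3 and 436 ± 43.8, a 2.45-fold higher level (log2 difference 1.29 ± 0.22). All 3 probes were well above background on both arrays and all 3 were higher in Sox9+EpCAM- cells, but they did not give the same size. On the log2 scale probe 1 exceeded probe 3 by 3.73 ± 0.31, a 13.2-fold gap over 3656 bases of the genome, and probe 1 exceeded probe 2 by 1.31 ± 0.31. These gaps are larger than the spot errors. No probe of another gene shares 20 bases with any of them. The array design assigns probes 1 and 2 to a RefSeq transcript of Sox4 and probe 3 to an Ensembl transcript. The source of the gaps was not tested. A difference of Sox4 above 4-fold was thus read by probes 1 and 2 and not by probe 3.

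Sox12, the other SoxC factor measured here, went from 358 ± 36.3 in MHs to 1390 ± 139 in Sox9+EpCAM- cells. It was 2.59-fold higher (log2 difference 1.37 ± 0.21), which among the 9 genes is next to Sox4 of those measured on both arrays and is above 89.4% of those differences. Its single probe lies at chr2:152220036-152220095. Sox11, the third SoxC factor, had no probe well above background on either array.

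The 250 bases before the starts of Sox4 and Sox12, the pair of Sox genes at least 2-fold higher, are shown, from the RefSeq promoter table of GRCm38.p6, written 5′ to 3′ on the strand of the gene. Capitals mark the GC box (GGGCGG) and the CCAAT box (CCAAT) on either strand, sequences that general promoter-binding factors recognise.
Sox4 (chr13:28953700-28953949, minus strand): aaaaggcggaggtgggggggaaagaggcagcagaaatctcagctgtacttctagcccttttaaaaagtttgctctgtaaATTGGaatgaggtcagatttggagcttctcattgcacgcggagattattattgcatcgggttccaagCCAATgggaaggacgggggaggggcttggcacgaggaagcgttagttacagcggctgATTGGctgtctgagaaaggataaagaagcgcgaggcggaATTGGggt
Sox12 (chr2:152398047-152398296, minus strand): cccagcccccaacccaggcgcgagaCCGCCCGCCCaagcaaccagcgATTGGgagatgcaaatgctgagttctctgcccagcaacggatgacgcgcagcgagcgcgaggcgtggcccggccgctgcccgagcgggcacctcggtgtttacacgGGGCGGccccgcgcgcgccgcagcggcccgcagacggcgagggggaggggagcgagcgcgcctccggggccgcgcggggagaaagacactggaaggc
The windows differ in composition. That of Sox4 is 50.8% G or C, near the median of 52.4% over all 32851 windows, and holds 4 CCAAT boxes and 0 GC boxes. That of Sox12 is 74.4% G or C and holds 3 GC boxes, of which a pair overlaps, and 1 CCAAT box. At least 1 CCAAT box occurs in 33.8% of all windows and at least 1 GC box in 32.7%, while 0.798% hold at least 4 CCAAT boxes and 8.47% at least 3 GC boxes. The Sox4 window also has 1 match to TGGGAA, the core bound by the Notch effector RBPJ (in 21.6% of all windows), and 1 to GGAATG, the core bound by the TEAD partners of Yap1 (in 12.6%), and each of them overlaps a CCAAT box. Neither window matched the Sox core AACAAT (9.42% of all windows), TATAAA (12.4%) or the AP-1 site TGACTCA (4.46%), each searched on both strands. A match is a run of letters and does not show that a factor binds there.

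**Figure D3:**
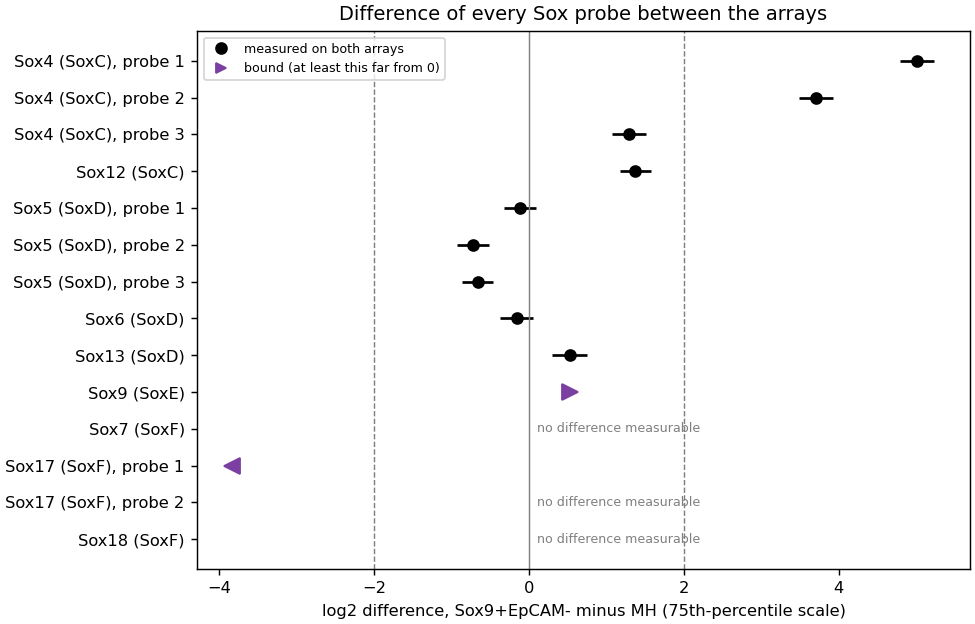
Log2 difference of the 14 Sox probes, Sox9+EpCAM- minus MH, after scaling to the 75th percentile of each array. Circles are probes measured on both arrays with the propagated spot error, triangles are bounds, and dashed lines mark 4-fold. The Sox4 probes lie at 5.02, 3.71 and 1.29, and the bound of Sox17 probe 1 lies at -3.83.

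The SoxD factors, which modulate other Sox proteins in cartilage, nerve and muscle, differed little between the arrays. Sox6, read by 1 probe at chr7:122615418-122615477, gave 221 ± 23.1 in MHs and 296 ± 29.9 in Sox9+EpCAM- cells (log2 difference -0.16 ± 0.21). Sox13, read at chr1:135279099-135279158, gave 81.8 and 176, a 1.44-fold higher level (log2 difference 0.52 ± 0.23). The Sox6 difference is smaller than its spot error, and that of Sox13 exceeds it but stays under 2-fold.

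Sox5 was read by 3 probes, and the brightest of them differs from the others in sequence. Probe 3 gave 146000 ± 14600 in MHs and 138000 ± 13800 in Sox9+EpCAM- cells (log2 difference -0.66 ± 0.20). It consists of A and G alone and holds 16 GGA triplets, where the median over all probes is 1, and the array design places only 27 of its 60 bases on the genome. It shares 20 bases or more with 18 probes of other genes, where 7.16% of all probes share such a stretch with any. Those 18 probes were all well above background on both arrays, with intensities of 38400 to 137000 in MHs and 41300 to 153000 in Sox9+EpCAM- cells, and their log2 differences ran from -0.91 to -0.31 with a median of -0.52. The log2 difference of Sox5 probe 3 and its intensity in Sox9+EpCAM- cells thus lie among those of the 18 probes, its intensity in MHs lies above all of them, and whether it reads Sox5 RNA was not tested. Among all 39390 probes, 19 are made of A and G alone, and all 19 were well above background on both arrays, where 61.4% of all probes were.

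The remaining Sox5 probes share no such stretch. Probe 2 gave 1910 ± 191 in MHs and 1730 ± 173 in Sox9+EpCAM- cells, a 1.65-fold lower level (log2 difference -0.73 ± 0.20). Probe 1 gave 452 ± 45.6 and 624 ± 62.5, a log2 difference of -0.12 ± 0.21. All 3 probes that the design names Sox5 were lower in Sox9+EpCAM- cells by less than 2-fold, and probe 1 was so by less than its spot error. Probe 3 is counted by name only, since whether it reads Sox5 RNA was not tested.

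The SoxF factors are known from endothelial cells, and here most of their probes gave no signal well above background. Sox17 probe 1 gave 175 ± 18.4 in MHs and 3.78 ± 3.76 in Sox9+EpCAM- cells, where it was not well above background, so the level in Sox9+EpCAM- cells was lower by at least 14.2-fold (log2 bound -3.83). Sox17 probe 2, which lies downstream, gave 6.31 and 4.23 and was well above background on neither array. The signal on the MH array was therefore read by 1 of the 2 Sox17 probes. Sox7, at chr14:64569419-64569478, gave 6.72 in MHs and 6.63 in Sox9+EpCAM- cells. Sox18, at chr2:181404789-181404848, gave 6.47 and 14.6. All 4 of these signals were below the lowest signal well above background of their array, so no difference can be given for either gene.

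Like Sox17, most endothelial markers that could be compared were lower in Sox9+EpCAM- cells. So were most hepatocyte, leukocyte and erythroid markers, with median log2 differences of -1.06, -1.88 and -1.27. Over all genes with a difference, 5.96% were at least 4-fold lower, 44.7% were higher and the median was -0.12. Of 17 endothelial markers, 16 could be compared, 14 were lower in Sox9+EpCAM- cells and 6 of them by at least 4-fold, and the median log2 difference was -1.71. Their summed level, each intensity divided by the 75th percentile of its array, was 12.9 for MHs and 4.38 for Sox9+EpCAM- cells. Clec4g, a lectin of sinusoidal endothelium, went from 397 to 50.7 (11.7-fold lower on the scaled values) and Tek, the angiopoietin receptor, from 357 to 65.2 (8.20-fold lower). At the other end of the list, Plvap, a protein of fenestrated endothelium, was 1.62-fold higher (73.7 and 179) and Flt1, a receptor for VEGF, 1.48-fold higher (89.8 and 199). Pecam1, a junction protein of all endothelium, gave 669 and 594 (1.69-fold lower), and the hyaluronan receptor Lyve1 was well above background on neither array. Pecam1 and Lyve1 were added with their values known. The part of endothelial RNA in the Sox17 value was not tested, and in bulk RNA fewer cells of a type and less RNA per cell cannot be told apart.

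Genes named in vessel biology as targets of SoxF factors went both ways. Of 9, 8 could be compared, with 2 at least 4-fold higher, 2 at least 4-fold lower and a median log2 difference of -0.63. The shares of all genes with a difference past these thresholds were 5.98% (higher) and 5.96% (lower). Cldn5, a tight junction protein, went from 103 to 1610 (10.4-fold higher) and Vcam1, an adhesion molecule, from 169 to 2290 (9.05-fold higher). Rasip1, a regulator of vessel lumen formation, went from 902 to 10.5 (at least 73.4-fold lower) and Cdh5, the cadherin of endothelial junctions, from 103 to 8.90 (at least 8.39-fold lower), both being below the floor of the Sox9+EpCAM- array. Efnb2, an arterial ligand, was 3.83-fold lower (281 and 110) and Prox1, a factor of lymphatic vessels and of hepatocytes, 1.70-fold lower (3000 and 2650).

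Genes linked to the other Sox groups were read in the same way. Among 10 regulators of bile duct formation, 9 could be compared, 2 were at least 4-fold higher and 0 at least 4-fold lower, with a median log2 difference of 0.06. The shares of all genes with a difference were 5.98% (higher) and 5.96% (lower). Hes1, a Notch target, gave 6.67 and 813 (at least 19.5-fold higher), and the Notch ligand Jag1 gave 24.9 and 434 (at least 10.4-fold higher), both being below the floor of the MH array. Tgfbr2, a receptor for TGF-beta, went from 1410 to 3160 (1.50-fold higher). At the other end, the receptor Notch2 went from 6160 to 3190 (2.89-fold lower) and the factor Onecut2 from 5300 to 3180 (2.50-fold lower). The list thus held Notch pathway members on both sides.

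Of 3 genes known as SoxC targets in other tissues, 2 could be compared, 0 differed by 4-fold and the median log2 difference was -0.49. Tubb3, a neuronal tubulin, went from 572 to 415 (2.06-fold lower), while Tead2 was at least 1.04-fold higher and Ezh2 was well above background on neither array. Of 10 cartilage genes known as targets of SoxE and SoxD factors, 6 could be compared, 0 differed by 4-fold and the median log2 difference was -0.09. Acan, the aggrecan core protein, went from 357 to 170 (3.15-fold lower), Col9a2 from 387 to 400 (1.45-fold lower), Matn1 from 115 to 181 (1.05-fold higher) and Col11a2 from 98.2 to 168 (1.14-fold higher). Col2a1, the best known Sox9 target in cartilage, was well above background on neither array.

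Other genes with an HMG box were read beside the 9. Of the 11 Sox genes on the array outside the 9 (Sry included), 4 could be compared and 0 differed by 4-fold. Sox1 was 1.36-fold lower (109 and 120), Sox10 was 1.24-fold higher (135 and 250), Sox21 was 1.33-fold higher (1350 and 2680) and Sry was 1.05-fold lower (747 and 1070). Whether the Sry probe reads Sry RNA was not tested. Further probes of Sox1 and Sox21 were well above background in Sox9+EpCAM- cells alone, with bounds of at least 3.17-fold and at least 1.07-fold higher. Sox14 (15.1 and 39.7) and Sox15 (7.72 and 28.9) were so in Sox9+EpCAM- cells alone, at signals too low for a fold. Sox2, Sox3, Sox8, Sox11 and Sox30 were well above background on neither. Of 4 TCF/LEF factors, which carry a related HMG box and act in Wnt signalling, 3 could be compared and 0 differed by 4-fold, with Tcf7 at 1.53-fold lower (98.5 and 96.2), Tcf7l2 at 1.03-fold higher (7860 and 12100) and Lef1 at 1.26-fold higher (36.0 and 68.1).

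**Figure D4:**
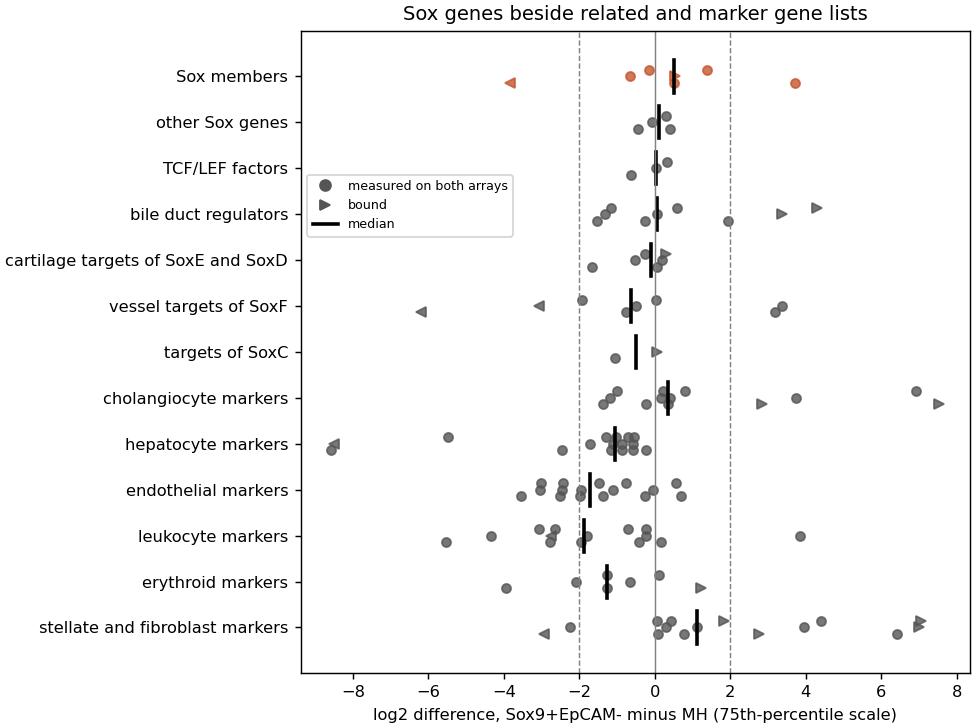
Log2 difference of single genes, Sox9+EpCAM- minus MH, for the 9 Sox genes (orange) and 12 other lists, after scaling to the 75th percentile of each array. Each point is a gene measured on both arrays, triangles are bounds, black bars are list medians and dashed lines mark 4-fold. The Sox genes run from -3.83 (Sox17, a bound) to 3.71 (Sox4), and endothelial markers have a median of -1.71. The 4 other Sox genes with a difference, each read by its brightest probe, lie between -0.44 and 0.41.

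Markers of the cell types that either sample could hold were read beside Sox4, Sox12 and Sox9. Of all genes with a difference, 5.98% were at least 4-fold higher and 5.96% at least 4-fold lower. All 16 hepatocyte markers were above background on the MH array and lower in Sox9+EpCAM- cells, 4 of them at least 4-fold, with Hnf4a at 4990 and 6360 (1.18-fold lower on the scaled values), Apoa1 at 166625 and 171250 (1.46-fold lower), Cyp2e1 at 56100 and 1900 (44.2-fold lower) and Cyp3a11 at 85800 and 337 (381-fold lower). Their median log2 difference was -1.06 and their summed scaled level was 1669 for MHs and 802 for Sox9+EpCAM- cells. Of 13 cholangiocyte markers, 9 were higher, 4 of them at least 4-fold, and the median log2 difference was 0.35, where 44.7% of all genes with a difference were higher and their median was -0.12. The summed level went from 3.67 to 55.0, of which Spp1 made up 42.3 and Cd24a 6.97, and without this pair of genes it went from 3.31 to 5.68. Spp1, osteopontin, was 122-fold higher (258 and 47000) and Epcam 13.3-fold higher (139 and 2770), although the sort took EpCAM-negative cells, while Aqp1 (2.59-fold lower) and Prom1 (2.29-fold lower) went the other way. Of 17 stellate cell and fibroblast markers, 15 could be compared, 13 were higher, 6 were at least 4-fold higher and 2 at least 4-fold lower, with a median log2 difference of 1.11 and summed levels of 16.5 and 58.9. Col3a1 was 85.1-fold higher (175 and 22300) and Col1a1 21.3-fold higher (82.6 and 2630), while Tagln was 1.03-fold higher (2310 and 3580) and Rgs5 4.75-fold lower (371 and 117). Lrat, the enzyme with which stellate cells store vitamin A, was at least 7.70-fold lower (94.6 and 3.74). Of 16 leukocyte markers, 14 could be compared, 12 were lower and 6 at least 4-fold lower, with a median log2 difference of -1.88. Laptm5 was 46.6-fold lower (2550 and 82.0) and Emr1 20.2-fold lower (652 and 48.4), while Cd52 was 1.12-fold higher (85.7 and 144) and Cd68 14.4-fold higher (52.9 and 1140). Without Itgam, whose probe shares 20 bases with 23 probes of other genes, the summed level went from 37.5 to 16.2. Of 10 erythroid markers, 7 could be compared and 5 were lower, with a median log2 difference of -1.27 and summed levels of 7.15 and 2.04. They ran from Hba-a1 (15.5-fold lower, 1820 and 176) and Alas2 (4.27-fold lower, 987 and 346) to Epb4.2 (1.58-fold lower, 47.1 and 44.7) and Slc4a1 (1.08-fold higher, 73.3 and 119) among genes measured on both arrays. The part of other cell types in the Sox4 and Sox12 values was not tested.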

How the data were processed

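A service provider labelled the RNA of 2 samples with Cy3 and ran the Agilent arrays. The authors deposited spot intensity values from Feature Extraction 10.7.3.1 with the background subtracted, whose error model has a preset multiplicative term of 0.1. They also deposited a table of ratio values, each of which equals the processed intensity divided by the median of its array (96.5 for MHs and 164 for Sox9+EpCAM- cells). The precision is limited by the number of arrays.

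Each intensity was divided by the 75th percentile of its array before log2 was taken. Controls were dropped, as were spots that either array marked as outliers, and repeat spots of a probe were averaged. A gene was its probe with the highest mean over both arrays, and every probe of a Sox gene is given. A difference of 4-fold was the rule of size. Named genes are all Sox genes on the array and, of each other list, the genes measured on both arrays with the 2 highest and the 2 lowest differences, and any other gene was chosen with its value known. A gene that this rule names is not reported here. The Sox genes and the 12 other lists were chosen with earlier results of these data known. All 9 Sox names are current RefSeq symbols, and 5 have a promoter window in the RefSeq table (10 windows). Adgre1 and Epb42 were read under the design's older names. A protein comparison was not analysed here.

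Alternatives were normexp background correction (limma 3.58.1, R 4.3.3, offset 50), quantile normalization, scaling to Gapdh or to the median of those probes that both arrays detected, the deposited table, a gene as the median of its probes, outlier spots kept, differences without the bound, genes detected on both arrays alone, and 2-fold or 10-fold as the rule of size. Python 3.11.15, pandas 2.3.3 and numpy 2.4.6 were used. The scripts were tested on simulated data with known changes.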

Additional observations from a re-analysis of the deposited data

How the results depend on the processing

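For the counts of Sox genes past the threshold and the differences of single Sox genes, 83 values under the alternatives moved by less than 1.5-fold, 8 moved by more and 0 reversed. Part of the 83 could not move, so the tally is no measure of robustness. Every Sox spot was already used, so keeping outlier spots added none. A median over probes leaves a gene with 1 probe unchanged. Dropping the bound, or keeping genes detected on both arrays, leaves unchanged a gene measured on both. The number of Sox genes at least 4-fold higher became 2 without the bound, where Sox9 was added at 2.24 (log2), and 2 at a threshold of 2-fold. The number at least 4-fold lower became 0 when only genes above background on both arrays were used, which leaves Sox17 without a value. The log2 difference of Sox17 was -2.42 after normexp background correction and -6.12 without the bound. That of Sox4 was 4.34 after normexp and 5.06 after quantile normalization, where its probe 1 became the brightest. Normexp gave no fold for Sox9. Using only probes that share no 20 bases with a probe of another gene, an alternative added after the data were seen, Sox5 was read by probe 2 at -0.73. Across alternatives Sox12 stayed between 1.19 and 1.37, Sox13 between 0.26 and 0.52, Sox5 between -0.83 and -0.11 and Sox6 between -0.34 and -0.16. The median of all genes, -0.12, was -0.31 in the deposited table and -0.26 after scaling to Gapdh. Over all genes, 612 were at least 4-fold higher and 660 lower after normexp, and 758 were higher among genes above background on both arrays, in place of 1309 higher and 1304 lower. The median of leukocyte markers was -1.25 without the bound, and that of SoxC targets was -1.22 in the deposited table, -1.10 after quantile normalization and -1.18 after scaling to Gapdh.

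No paired analysis was possible because there is 1 array per group. Leaving out a replicate and fitting the slide as a block were not run for that reason. Signal over background limits Sox7 and Sox18 on both arrays, Sox9 in MHs and Sox17 in Sox9+EpCAM- cells, where no signal was well above background.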

Other observations

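The Sry probe gave 747 in MHs and 1070 in Sox9+EpCAM- cells, each well above background, whereas other genes read as a check of the labelled sex differed between them. The Y-linked genes Ddx3y, Kdm5d, Uty and Eif2s3y lay below the floor of the MH array and were higher in Sox9+EpCAM- cells by log2 bounds of at least 3.95, 3.56, 2.27 and 1.75. The Sry probe was thus the only one of the 5 Y-linked genes read here with a signal well above background in MHs. Whether it reads Sry RNA was not tested.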
